A study of Mus musculus with 6 samples.

Results

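The genes described here are 10 mouse genes chosen from the KDM3, KDM4, KDM6 and KDM7 families. They encode Jumonji C (JmjC) demethylases of lysines K9, K27 and K36 of histone H3. Their relatives Jmjd1c, Hr, Uty and Phf2 are counted among other JmjC proteins instead. The 10 genes were matched by symbol to Ensembl identifiers, and all were found among the 48795 identifiers of the count table. Polyadenylated RNA of the hippocampus was sequenced in 3 libraries of an inducible forebrain knockout (KO) of Kdm1a and Kdm5c and in 3 libraries labelled wild type (WT). The KO design combined floxed Kdm1a (deletion of exons 5 and 6), floxed Kdm5c (deletion of exons 11 and 12) and CamKIIα-CreERT2, a recombinase that acts after tamoxifen and is expressed in principal neurons of the forebrain, on a C57BL/6J background. Both groups received tamoxifen, and the age given for it is 2 to 3 months. Glia, interneurons and vessels lack the recombinase and contribute intact copies of both genes to the same libraries. No group lacked 1 of the enzymes alone, so their contributions cannot be told apart. The labels do not say whether WT mice carried the recombinase, so an effect of Cre itself cannot be told apart from the deletions. Separate animals are not stated either, so a p-value here measures the spread between libraries, which may be technical.

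Total gene counts were 19342337 to 19637352 in the KO libraries and 19309576 to 19700249 in the WT libraries. Kdm1a averaged 38.6 ± 1.29 counts per 1000000 (CPM) in KO and 73.7 ± 3.95 CPM in WT (SD, n = 3 each), and it passed the threshold (log2 fold change -0.93, adjusted p = 4.32e-07). Kdm5c averaged 70.6 ± 4.67 CPM in KO and 79.5 ± 2.97 CPM in WT and did not pass it (log2 fold change -0.17, adjusted p = 0.143). These adjusted p-values, like the others below, come from edgeR (quasi-likelihood) and were adjusted by Benjamini-Hochberg over the 16861 genes tested. The threshold is 0.05. The KO values of Kdm5c all lay below its WT values, as was so for 11.2% of all genes tested. Counts are per gene over all exons, so transcripts that lack only the floxed exons are still counted. How far the Kdm1a and Kdm5c values measure the deletions was not tested. The principal neuron markers Camk2a, Slc17a7 and Prox1 were present in all 6 libraries. In KO they had 4284 to 4736, 1261 to 1371 and 94.7 to 110.7 CPM. In WT they had 4547 to 4932, 1233 to 1446 and 94.5 to 124.2 CPM. Counts of Y-linked Kdm5d ran from 673 to 748 and those of Xist from 1 to 13 over all 6 libraries.

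JmjC demethylases are dioxygenases that use iron and 2-oxoglutarate, a metabolite of the citric acid cycle, to oxidise a methyl group, which is then lost as formaldehyde. Unlike the flavin enzyme KDM1A, many of them can also remove trimethylation. KDM3 enzymes act on mono- and dimethylated H3K9, KDM4A to KDM4C on di- and trimethylated H3K9 and H3K36, KDM6 enzymes on di- and trimethylated H3K27, and KDM7 enzymes on the lower methylation states of H3K9 or H3K27. KDM1A and KDM5C, itself a JmjC enzyme, remove methylation from H3K4, so the comparison asks whether transcripts of enzymes for other lysines differ when these are deleted from adult neurons.

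The feature that makes these proteins enzymes is a pocket in which an iron ion is held by a histidine, by an acidic residue with 1 residue between them, and by a further histidine. The 60 coding bases around the first of these histidines are shown for the members other than Kdm3b because they show how alike the members of a family are where they bind iron. Capitals mark the codon of the histidine and the codon of the acidic residue. The sequences are the coding strand, 5′ to 3′, from GENCODE M21 transcripts on GRCm38.
Kdm4a: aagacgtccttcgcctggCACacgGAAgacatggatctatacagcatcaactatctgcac
Kdm4b: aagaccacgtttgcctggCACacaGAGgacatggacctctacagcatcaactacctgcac
Kdm4c: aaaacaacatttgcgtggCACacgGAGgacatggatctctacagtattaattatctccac
Kdm4d: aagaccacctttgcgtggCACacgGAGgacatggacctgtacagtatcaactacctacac
Phf8: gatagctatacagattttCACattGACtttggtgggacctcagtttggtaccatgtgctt
Kdm7a: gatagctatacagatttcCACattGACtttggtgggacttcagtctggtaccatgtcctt
Kdm3a: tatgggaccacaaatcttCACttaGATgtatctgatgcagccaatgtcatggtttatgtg
Kdm6a: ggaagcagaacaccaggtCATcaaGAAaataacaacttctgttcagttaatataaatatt
Kdm6b: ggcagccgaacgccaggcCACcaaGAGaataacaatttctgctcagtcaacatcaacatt

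Each of the 9 stretches was found by a motif of its family that contains the histidine and the acidic residue, so the marked codons are no result. The stretch lies in exon 5 of Kdm4b (chr17:56355977-56356036, plus strand) and in exon 7 of Phf8 (chrX:151554258-151554317, plus strand). In Kdm6a and Kdm6b it crosses an exon boundary. Phf8 and Kdm7a are identical at 56 of 60 bases (93.3%), Kdm4b and Kdm4d at 54 (90%), and Kdm6a and Kdm6b at 48 (80%). The longest identical run between relatives was sought over all their annotated transcripts, untranslated parts included. It was 17 bases for Kdm4b with Kdm4c, 20 for Phf8 with Kdm7a and 26 for Kdm4c with Kdm4d. The read length is not given in the sources used here, and whether reads were shared between relatives was not tested.

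Of the 10 genes, 9 had enough counts to be tested, 1 rose (Kdm4b), 1 fell (Phf8) and 7 did not pass the threshold. Kdm4b and Phf8 were also the 2 members whose groups did not overlap, beside 25.2% of all genes tested. The 7 uncalled genes had adjusted p-values of at least 0.506 (edgeR quasi-likelihood, Benjamini-Hochberg). The share past the threshold was 22.2% of the 9 tested, beside 6.95% of all genes tested, of which 5.90% rose and 1.05% fell. The median log2 fold change was 0.00048 over the 9 genes and -0.0073 over all genes tested. The lowest count of a tested member in a library was 536 and the highest 2531.

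**Figure D1:**
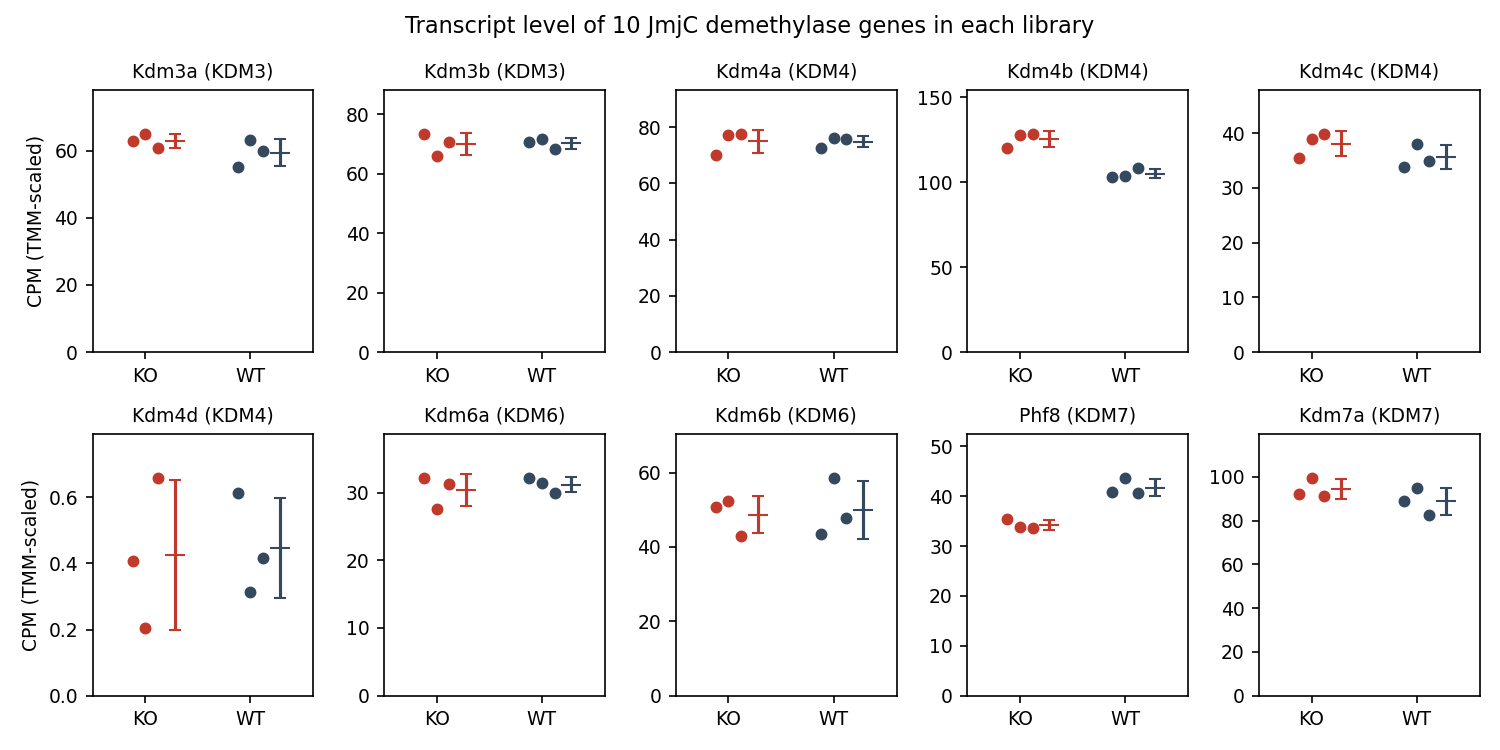
Transcript level (TMM-scaled CPM, axes from 0) of each of the 10 genes in each library, as points, with the mean and SD of 3 KO and 3 WT libraries beside them. The KO points of Kdm4b lie above the WT points and those of Phf8 below them, and in the other 8 genes the groups overlap.

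KDM4B removes trimethylation of H3K9, the mark of constitutive heterochromatin, and its gene rises in hypoxia in many cell types. In the KO libraries Kdm4b (ENSMUSG00000024201, chromosome 17, 56326062 to 56402870, plus strand, GRCm38) had 120.0, 127.9 and 128.4 CPM, against 103.4, 103.5 and 108.3 CPM in the WT libraries. The lowest KO library lay above the highest WT library, as it did for 14.0% of all genes tested. The means were 125 ± 4.72 CPM in KO and 105 ± 2.76 CPM in WT (SD, n = 3 each). Kdm4b thus rose by 19.4% (95% interval 9.36 to 30.3%; log2 fold change 0.26, SE 0.0587, adjusted p = 0.0160, edgeR quasi-likelihood, Benjamini-Hochberg). The call was lost on leaving out KO replicate 2, KO replicate 3 or WT replicate 1, with edgeR adjusted p-values of 0.0887, 0.0889 and 0.0545.

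Fold changes over all genes varied with base composition. The longest transcript of Kdm4b is 58.7% G or C, which places the gene in the decile of tested genes richest in these bases. In that decile the median log2 fold change was 0.06 and 16.1% of genes rose, while in the poorest decile the median was -0.08 and 1.13% rose. After each library was corrected for GC content by a least-squares loess curve, the log2 fold change of Kdm4b was 0.10 (adjusted p = 0.254, edgeR quasi-likelihood, Benjamini-Hochberg). That correction left the richest decile at a median of -0.12. After a robust correction of the same kind, which left it at -0.0012, Kdm4b was at 0.20 and kept its call (adjusted p = 0.0316, same test). Both corrections were chosen after the data were seen, and the part of base composition in the Kdm4b value was tested no further.

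Of 18 markers of astrocytes, microglia and oligodendrocytes, Gfap and Mbp rose and the others did not pass the threshold. The summed level of 6 astrocyte markers was 1956 to 1981 CPM in KO and 1611 to 1840 CPM in WT, that of 6 oligodendrocyte markers 5501 to 6190 and 4941 to 5360 CPM, and that of 6 microglial markers 351.7 to 402.0 and 308.5 to 352.1 CPM. The KO and WT sums overlapped for microglia but not for astrocytes or oligodendrocytes. All 6 markers of each type had a positive fold change, the smallest being 0.01 (log2) for Gja1, and none was at 0 in all libraries. The 7 principal neuron markers summed to 6175 to 6773 CPM in KO and 6550 to 6990 CPM in WT, with 1 higher (Spink8) and 1 lower (Neurod6). In bulk tissue fewer cells of a type and less RNA per cell cannot be told apart. Interneuron markers overlapped (767.8 to 838.0 CPM in KO, 816.0 to 858.6 in WT), choroid plexus markers varied within KO (3.04 to 61.1 CPM, against 6.37 to 20.7 in WT), and the 4 striatal markers summed to 50.7 to 57.5 CPM in KO and 37.8 to 47.3 in WT. Most of the striatal sum was Ppp1r1b, which rose (44.7 CPM in KO, 33.8 in WT, edgeR adjusted p = 0.0211). Drd1, Drd2 and Adora2a had log2 fold changes of -0.16, 0.29 and 0.49 and did not pass the threshold. The part of cell makeup or of neighbouring tissue in the Kdm4b and Phf8 results was not tested.

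KDM4A and KDM4C, which share the substrates of KDM4B, did not pass the threshold. Kdm4a (ENSMUSG00000033326) had 70.0, 77.1 and 77.5 CPM in KO, against 72.5, 76.3 and 75.8 CPM in WT. Its log2 fold change was 0.00048 with a 95% interval of -0.13 to 0.13, and its sign was the same in 5 of 15 processing alternatives. Kdm4c (ENSMUSG00000028397) had 35.5, 39.0 and 39.8 CPM in KO, against 33.8, 38.1 and 35.0 CPM in WT (log2 fold change 0.10, interval -0.07 to 0.26). The KO and WT values of both genes overlapped. Kdm4d, known mainly from testis, had 8, 4 and 13 counts in KO and 12, 6 and 8 counts in WT, too few to be tested. With no filter on low counts its 95% interval ran from -1.01 to 0.85 on the log2 scale, so at this depth neither a fall nor a rise of such a size could be seen.

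PHF8 removes mono- and dimethylation of H3K9 and monomethylation of H4K20, and mutations of the human gene cause X-linked intellectual disability, as do mutations of KDM5C. Phf8 (ENSMUSG00000041229, chromosome X, 151520672 to 151633859, plus strand) had 35.4, 33.9 and 33.6 CPM in KO, against 40.8, 43.7 and 40.5 CPM in WT. The highest KO library lay below the lowest WT library, as was the case for 11.2% of all genes tested. The means were 34.3 ± 0.972 CPM in KO and 41.7 ± 1.76 CPM in WT (SD, n = 3 each). Phf8 fell by 17.8% (95% interval -25.7 to -9.06%; log2 fold change -0.28, SE 0.0678, adjusted p = 0.0204, edgeR quasi-likelihood, Benjamini-Hochberg). Without KO replicate 2, KO replicate 3 or WT replicate 2 the edgeR adjusted p was 0.0891, 0.123 and 0.0521. The longest transcript of Phf8 is 49.3% G or C, near the middle of the tested genes. With the least-squares and the robust GC corrections the log2 fold change of Phf8 was -0.32 and -0.29.

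Phf8 is a neighbour of the floxed Kdm5c gene on chromosome X, 599 kb away. Within 1000 kb of Kdm5c, a window chosen after the values were seen, 19 genes other than these were tested. Of these, 0 rose and 0 fell by edgeR at the same threshold, and 2 had an unadjusted p under 0.05, both with a positive fold change. Their log2 fold changes ran from -0.13 to 0.84 with a median of 0.03, and 7 were below 0. The KO values lay all below the WT values in Phf8, in Kdm5c and in 0 of the 19, beside 11.2% of all genes tested, and all above them in 4 of the 19, beside 14.0%.

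KDM7A, the other KDM7 enzyme among the 10, acts on H3K9 and H3K27. Its gene had a higher level than Phf8 per kilobase of exon. Kdm7a (ENSMUSG00000042599) had 92.1, 99.7 and 91.4 CPM in KO, against 89.0, 94.8 and 82.5 CPM in WT. The groups overlapped, and the log2 fold change of 0.09 (95% interval -0.06 to 0.23) did not pass the threshold (adjusted p = 0.506, edgeR quasi-likelihood, Benjamini-Hochberg). An antisense gene, 4930599N23Rik, covers 2.85% of its exon bases and had 7, 11 and 6 counts in KO and 2, 4 and 0 in WT. Kdm7a itself had 5541 counts in KO and 5146 in WT. The strand setting of the counting is not given in the sources used here, and the part of reads in the shared bases was not tested.

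KDM3A, which is induced in hypoxia and needed for spermatogenesis and for metabolism of fat in mice, and its relative KDM3B remove the lower methylation states of H3K9. Kdm3a (ENSMUSG00000053470) had 62.8, 64.9 and 60.7 CPM in KO, against 55.1, 63.3 and 59.96 CPM in WT (log2 fold change 0.08, 95% interval -0.06 to 0.22). Kdm3b (ENSMUSG00000038773) had 73.3, 65.9 and 70.7 CPM in KO, against 70.7, 71.8 and 68.3 CPM in WT (log2 fold change -0.0063, 95% interval -0.14 to 0.12). In both genes the groups overlapped, and the edgeR adjusted p-values were 0.551 and 0.970. A lincRNA on the opposite strand, Gm26538, shares 24.6% of the exon bases of Kdm3b and had 1 count over the KO libraries and 1 over the WT libraries; its part in the Kdm3b value was not tested.

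KDM6A (UTX) and KDM6B (JMJD3) remove the H3K27 methylation that Polycomb repressive complex 2 lays down. KDM6A works in complexes with H3K4 methyltransferases, and KDM6B is known for its induction in stimulated macrophages. Kdm6a (ENSMUSG00000037369) had 32.1, 27.6 and 31.3 CPM in KO, against 32.2, 31.4 and 29.9 CPM in WT (log2 fold change -0.04, 95% interval -0.21 to 0.13). Kdm6b (ENSMUSG00000018476) had 50.7, 52.3 and 43.0 CPM in KO, against 43.5, 58.7 and 47.9 CPM in WT (log2 fold change -0.04, 95% interval -0.26 to 0.18). Both overlapped between groups (edgeR adjusted p = 0.832 and 0.873), and Kdm6b had the widest interval of the 9 tested genes. Its longest transcript is 59.6% G or C, more than that of Kdm4b. Uty is given here because it is the Y-linked relative of Kdm6a. It had 262, 218 and 278 counts in KO and 308, 288 and 299 in WT. Its log2 fold change of -0.26 did not pass the threshold (edgeR adjusted p = 0.166).

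**Figure D2:**
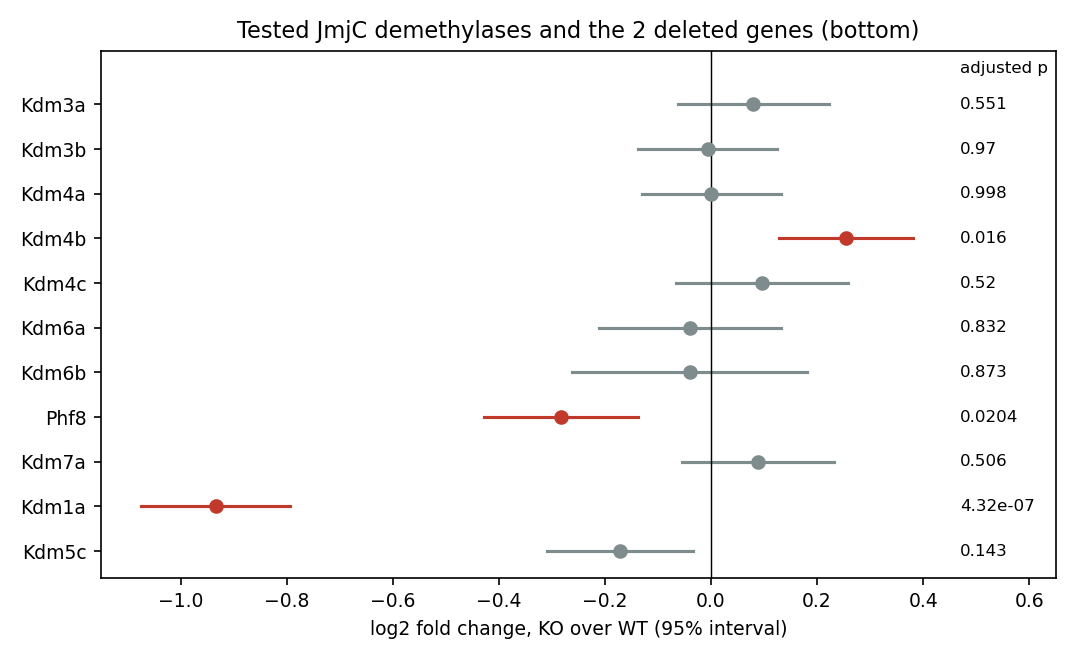
Log2 fold change of KO over WT with its 95% interval for the 9 tested demethylases and, at the bottom, Kdm1a and Kdm5c, with adjusted p-values of edgeR's quasi-likelihood test at the right and genes past the threshold in red. Of these 9, Kdm4b at 0.26 and Phf8 at -0.28 are the genes whose intervals exclude 0, and Kdm1a at -0.93 lies beyond both.

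Levels between genes were compared per kilobase of annotated exon (RPKM from TMM-scaled CPM). Kdm4b was the most abundant in both groups, with a mean of 25.6 RPKM in KO and 21.5 in WT, followed by Kdm4a with 13.0 and 12.9 and Kdm7a with 9.38 and 8.83. Next came Kdm3a with 7.64 in KO and 7.23 in WT, Kdm6b with 6.996 and 7.19, Kdm4c with 6.54 and 6.12, and Kdm3b with 4.96 and 4.99. Phf8 had 3.68 RPKM in KO and 4.48 in WT, Kdm6a 3.62 and 3.72, and Kdm4d 0.148 and 0.156. Neighbours in this order whose ranges overlapped were Kdm3a with Kdm6b and Kdm6b with Kdm4c in both groups, and Phf8 with Kdm6a in KO but not in WT. The order depends on the length used. Per kilobase of the longest transcript Kdm3a with 12.9 RPKM in KO and 12.2 in WT and Kdm3b with 11.0 in both groups stood above Kdm7a with 9.86 and 9.28, while Kdm4b, Kdm4a, Kdm4c, Phf8, Kdm6a and Kdm4d kept their places.

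The makeup of each family was compared as the share of a gene in the counts per kilobase of the listed members of its family. Jmjd1c, Hr, Uty and Phf2 are left out of these shares. The shares use the same counts as the levels above, so those of Kdm4b and Phf8 add no separate support to their calls. Kdm4b made up 57.2, 56.5 and 56.2% of KDM4 transcripts in the KO libraries and 53.2, 51.6 and 53.5% in the WT libraries. The difference of 3.86 percentage points had an exact two-sided permutation p of 0.1, the smallest that 3 libraries against 3 allow, so this design cannot reach 0.05. Shares in a family sum to 100%, so that of Kdm4a, whose own level had a log2 fold change of 0.00048, is no separate result: it was 28.6 ± 0.314% in KO and 31.8 ± 0.312% in WT (SD, n = 3 each). Kdm4c held 14.4% in KO and 15.0% in WT, and Kdm4d 0.327% and 0.386%, with ranges that overlapped. The KDM4 genes together summed to 42.9, 46.2 and 46.7 RPKM in KO and 39.7, 41.0 and 41.4 RPKM in WT.

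In the pair of Phf8 and Kdm7a, Phf8 made up 29.3, 26.8 and 28.4% in the KO libraries. It made up 33.1, 33.2 and 34.7% in the WT libraries, with no overlap. Its mean share was lower in KO by 5.49 percentage points (exact two-sided permutation p = 0.1, the smallest possible). The sum of the pair was 13.1 ± 0.437 RPKM in KO and 13.3 ± 0.783 RPKM in WT. Phf2, a KDM7 relative left out of this pair, had 14.4 RPKM in KO and 14.0 in WT. Kdm3a held 60.6 ± 1.90% of its pair with Kdm3b in KO and 59.1 ± 1.69% in WT (exact permutation p = 0.6). Jmjd1c, left out of that pair, had 5.07 RPKM in KO and 5.34 in WT. Kdm6a held 34.2 ± 3.61% of its pair with Kdm6b in KO and 34.3 ± 3.63% in WT (exact permutation p = 0.8). In both of these pairs the shares of the groups overlapped.

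**Figure D3:**
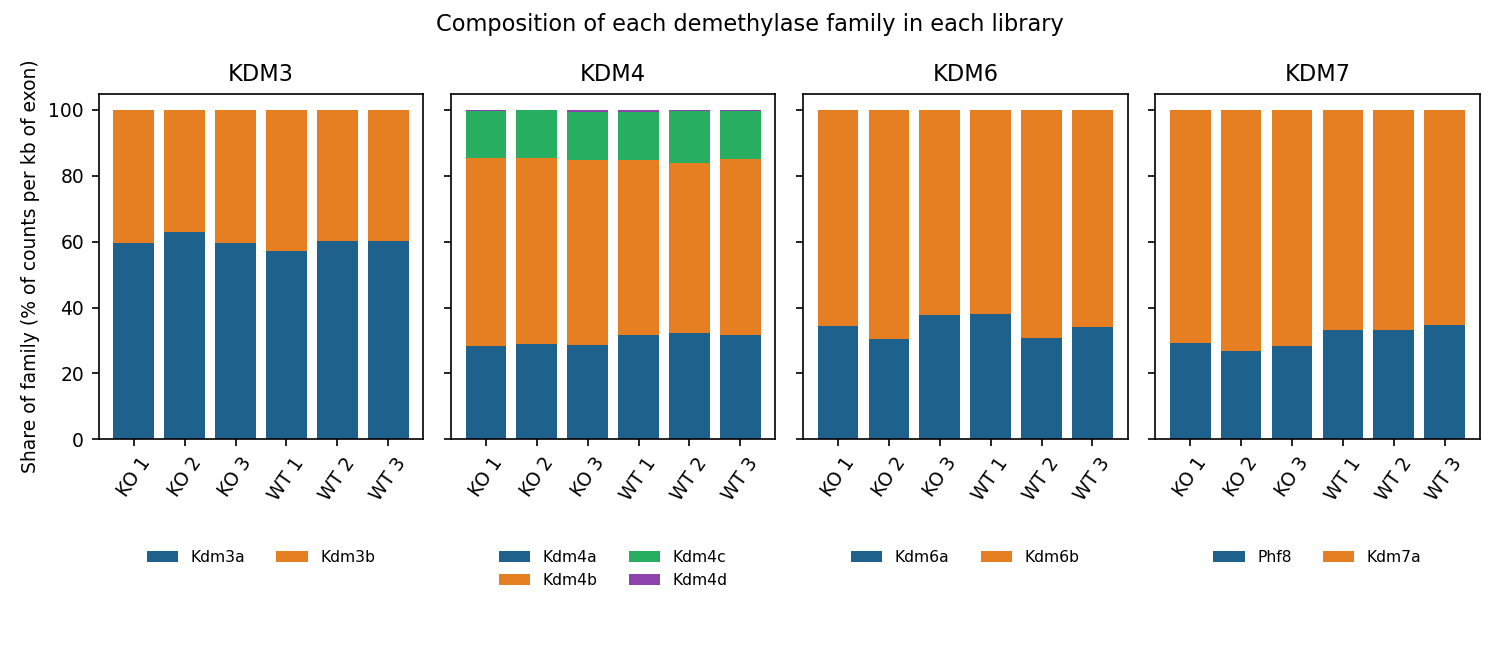
Share of each gene in the counts per kilobase of exon of the listed members of its family, in percent. Stacked bars show each KO library and then each WT library. In KDM4 the Kdm4b share is 56.2 to 57.2% in KO and 51.6 to 53.5% in WT, and in KDM7 the Phf8 share is 26.8 to 29.3% in KO and 33.1 to 34.7% in WT.

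The calls of Kdm4b and Phf8 were followed through 15 processing alternatives. Kdm4b was past the threshold in 11 of them, with log2 fold changes of 0.10 to 0.29 and edgeR, DESeq2 or limma adjusted p-values of 0.00388 to 0.254. Phf8 was past it in 12, with log2 fold changes of -0.32 to -0.25 and adjusted p-values of 0.00569 to 0.123 by the same tools. Neither gene changed direction in any of the 15.

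**Figure D4:**
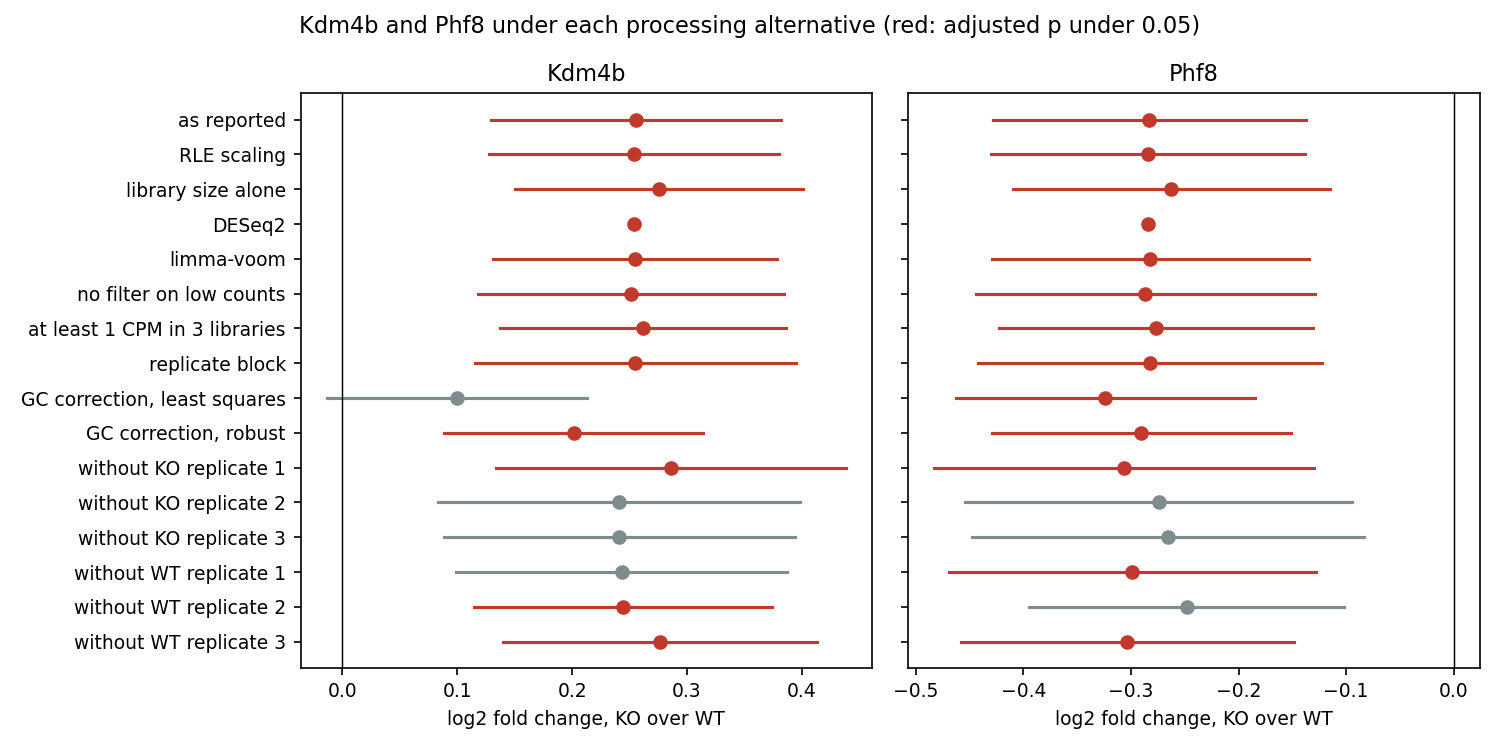
Log2 fold change of Kdm4b (left) and Phf8 (right), KO over WT, with its 95% interval, as reported and in each of 15 alternatives, with red where the adjusted p is under 0.05. No interval is drawn for DESeq2. Among the intervals drawn for Kdm4b, only that under the least-squares GC correction, with its point at 0.10, reaches below 0.

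Genes that act on or beside the same marks were followed in 10 lists of 105 genes, of which 104 were tested. Of these, 1 rose and 3 fell, or 3.85%, beside 6.95% of all genes tested. In 8 of the lists edgeR's quasi-likelihood test called 0 genes at an adjusted p under 0.05, as did DESeq2 and limma-voom. In these 8 lists the genes with an unadjusted p under 0.05 were 4 of 17 other JmjC proteins, 1 of 6 H3K9 methyltransferases, 1 of 19 genes of 2-oxoglutarate metabolism, and 0 of the other 5 lists, beside 20.2% of all genes tested.

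Among other JmjC proteins the smallest p was that of Tyw5, a hydroxylase of a modified base in tRNA, with 11.2 ± 0.390 CPM in KO and 13.9 ± 1.25 CPM in WT (adjusted p = 0.0896). Among writers of H3K9 methylation, the opponents of KDM3 and KDM4, it was that of Setdb1, which trimethylates H3K9, with 68.2 ± 2.12 CPM in KO and 77.6 ± 3.36 CPM in WT (adjusted p = 0.0828). Both missed the threshold (edgeR quasi-likelihood, Benjamini-Hochberg), with log2 fold changes of -0.31 and -0.19. Likewise uncalled were Cdyl among readers of H3K9 methylation (0.26, adjusted p = 0.267) and Ezh2, the H3K27 methyltransferase of Polycomb repressive complex 2 (0.21, adjusted p = 0.387). The gene with the smallest p was Smyd2 among H3K36 methyltransferases (-0.14, adjusted p = 0.387), Paxip1 among partners of KDM6A (0.10, adjusted p = 0.353), Ogdhl in 2-oxoglutarate metabolism (-0.17, adjusted p = 0.229) and Egln3, an oxygen-sensing prolyl hydroxylase, among other dioxygenases (0.29, adjusted p = 0.265).

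Kmt5c, which trimethylates H4K20, was the 1 of 3 H4K20 methyltransferases that fell, beside 1.05% of all genes tested. It averaged 22.4 ± 2.18 CPM in KO and 28.1 ± 2.00 CPM in WT (SD, n = 3 each; log2 fold change -0.33, adjusted p = 0.0465, edgeR quasi-likelihood, Benjamini-Hochberg). The adjusted p was 0.0575 with scaling by library size alone, and 0.180, 0.178, 0.129 and 0.0582 without KO replicate 1, KO replicate 3, WT replicate 2 or WT replicate 3.

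Of 19 genes known to be induced by hypoxia, 1 rose and 2 fell, with a median log2 fold change of -0.04. Over all genes tested 5.90% rose and 1.05% fell, and the median was -0.0073. Hk2, a hexokinase, averaged 14.4 ± 1.13 CPM in KO and 8.06 ± 0.581 CPM in WT (log2 fold change 0.83, adjusted p = 1.69e-04, edgeR quasi-likelihood, Benjamini-Hochberg). Bhlhe40, a transcriptional repressor, averaged 119 ± 9.43 CPM in KO and 149 ± 1.73 CPM in WT (-0.32, adjusted p = 0.00748), and P4ha1, a collagen prolyl hydroxylase, 65.2 ± 4.81 and 79.0 ± 6.20 CPM (-0.28, adjusted p = 0.0350). Bhlhe40 lost its call without KO replicate 1 or KO replicate 3 (edgeR adjusted p = 0.0508 and 0.0685), and P4ha1 without any of KO replicates 1 to 3 or WT replicates 2 and 3 (0.0710, 0.0548, 0.214, 0.0756 and 0.0728).

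**Figure D5:**
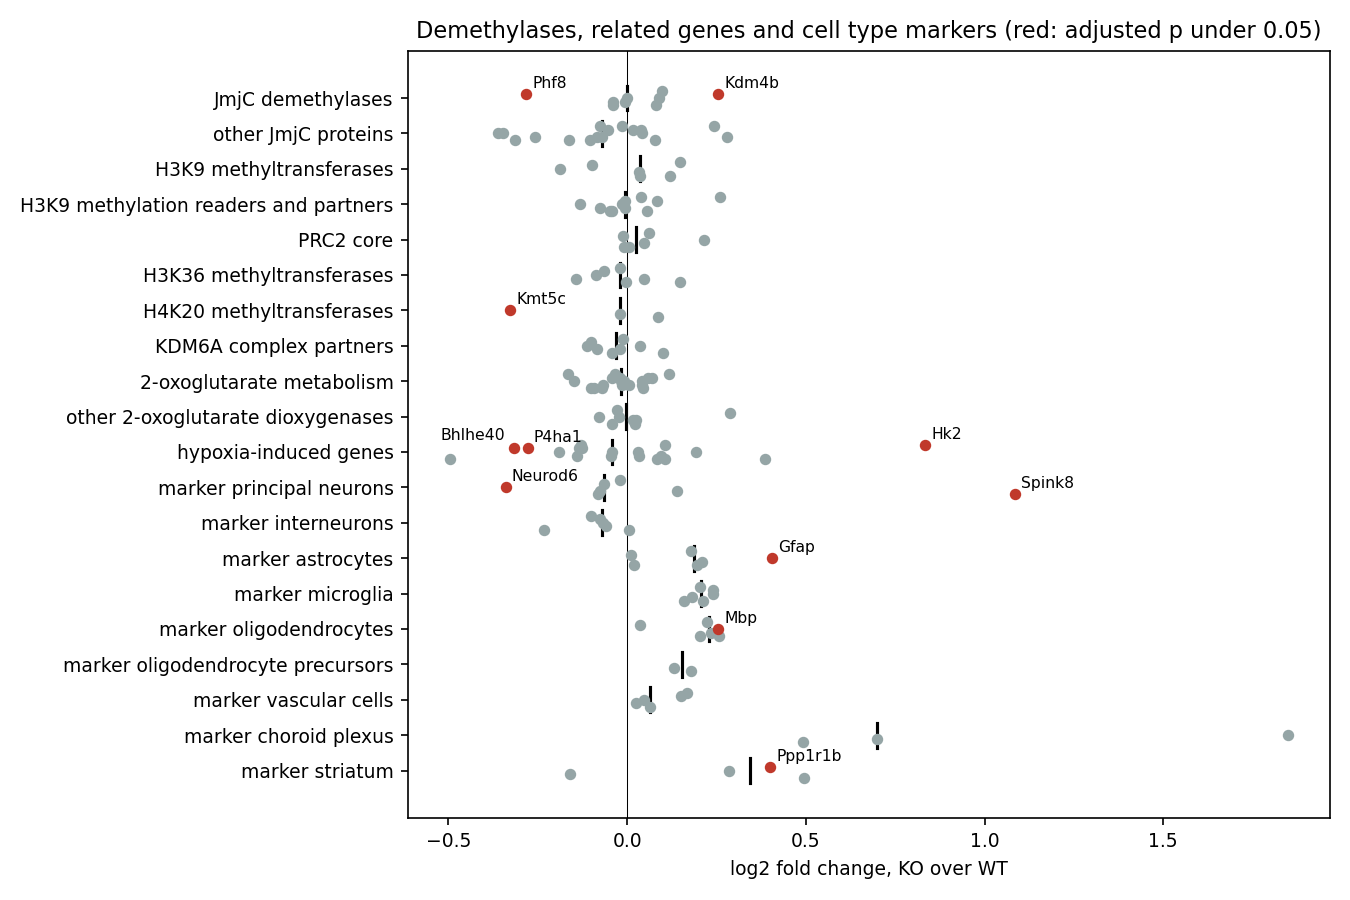
Log2 fold change of KO over WT for each tested gene (points) of the JmjC demethylases, of 10 lists of related genes and of the cell type markers, with list medians as black ticks and genes past the threshold in red and named. The medians of the demethylases and of the related lists lie between -0.07 and 0.04, and those of astrocyte, microglial and oligodendrocyte markers between 0.19 and 0.23.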

How the data were processed

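The authors deposited whole-number gene counts, 1 column per library, not divided by depth or length. The submitters' processing notes name cutadapt 1.18, HISAT2, HTSeq 0.11.1 and the build GRCm38 (mm10). Annotation release, strand setting and read length are not given in the sources. GENCODE M21 gave symbols, exons and coding sequences; 360 identifiers with 0.0512% of counts had no entry.

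Genes were filtered with filterByExpr (minimum count 10, minimum total 15) and scaled with TMM. KO was compared with WT by edgeR's quasi-likelihood test, group being the only term, with Benjamini-Hochberg adjustment over all genes tested (threshold 0.05). The SE of a log2 fold change is its size over the square root of F. Family shares were compared by exact permutation. The test was repeated with DESeq2 and limma-voom, with RLE or library-size scaling, without the filter, with a filter of 1 CPM in 3 libraries, with replicate as a block, without each library in turn and, added after the data were seen, with 2 GC corrections by loess (span 0.3), a least-squares and a robust fit. For shares they were the longest transcript, no division by length and leaving out Kdm4d.

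All 10 demethylases, Kdm1a and Kdm5c are named, and in each related list up to 3 genes past the threshold, or else the gene with the smallest p. Uty and markers are named besides. The members and lists were chosen with earlier results of these data known, so their counts are descriptions. The test was tried on simulated counts first. Software was R 4.3.3, edgeR 4.0.16, limma 3.58.1 and DESeq2 1.42.0.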

Additional observations from a re-analysis of the deposited data

How the results depend on the processing

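The log2 fold change of Kdm4a, near 0 as reported, was negative with RLE scaling (-0.0011), DESeq2 (-0.0011), limma-voom (-0.00071), all low counts kept (-0.0032), the replicate block (-0.00062) and the least-squares and robust GC corrections (-0.082 and -0.026). Leaving out 1 library at a time gave -0.023 to 0.047 for Kdm4a and -0.041 to 0.035 for Kdm3b. It gave -0.083 to 0.023 for Kdm6a and -0.13 to 0.089 for Kdm6b. Kdm3b was at 0.014 with library size alone. Over all 15 alternatives Kdm3b ran from -0.087 to 0.035 and Kdm6b from -0.22 to 0.089. The number of all genes that fell, 177 as reported, was 279 with no filter, 1034 and 271 with the least-squares and robust GC corrections, and 48 to 323 on leaving out 1 library. The least-squares correction, which moved the median of all genes to -0.05, left 0 demethylases higher and 7 related genes lower. Leaving out 1 library left 0 to 1 demethylase higher, 0 to 1 lower and 0 to 3 related genes lower. The shares of Kdm4b and Phf8 kept their direction in every alternative run on them. Deviations of same-numbered KO and WT libraries from their group means had correlations of 0.0093, -0.034 and -0.026. With 3 libraries per group these cannot show whether the numbers pair samples. With the replicate block 960 genes rose and 149 fell, Kdm4b had an edgeR adjusted p of 0.0307 and Phf8 of 0.0372.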
